A study of Homo sapiens with 5 samples.

Results

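Divergent promoters are stretches of DNA from which a pair of protein-coding genes runs in opposite directions, head to head, so that both start sites share 1 short stretch. A pair was a minus-strand and a plus-strand protein-coding gene on the autosomes whose annotated 5′ ends lay 1 to 1000 bp apart without overlap of the gene bodies. The rule used the gene annotation only and no peak. It found 859 pairs holding 1656 of 19229 autosomal protein-coding genes, with 61 genes in more than 1 pair. The distance between the 5′ ends had a median of 130 bp (quartiles 68.5 and 246 bp, range 1 to 995 bp). The region scored for a pair ran from 1 kb inside one gene to 1 kb inside the other. These regions merged into 798 separate stretches, because neighbouring pairs overlapped. In 88 pairs a member was a readthrough gene or a gene without a symbol.

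The samples were SKMEL-147 cells, an established human melanoma line, from which chromatin was precipitated with an antibody against PHF8. There were 3 such replicates, named A, B1 and B2, and 2 inputs, not analysed here on their own. The labels of these samples give no treatment and no change of genotype, so only promoters, and not conditions, could be compared. Nothing in the labels said that the replicates were separate cultures, so the spread between them may be technical. A was listed with 21506 peaks, B1 with 20882 and B2 with 20120, with a median of 54, 39 and 40 ChIP fragments at the summit. Read totals are unknown. A stood apart from B1 and B2 in scale, so fold enrichment, the ratio of ChIP signal to local background at a summit, was compared only within a replicate.

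The demethylase PHF8 takes repressive methyl marks off histones through its Jumonji domain, and its PHD finger binds trimethylated lysine 4 of histone H3, the mark of active promoters. Most promoters of head-to-head genes sit in CpG islands, DNA rich in unmethylated CG dinucleotides, and many serve housekeeping genes of DNA repair, translation and mitochondria. At an active promoter the nucleosomes just inside the gene carry the methylated histone, while the stretch upstream of the start site is largely free of nucleosomes, and a divergent promoter has a gene on both sides of such a stretch.

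The sequences between the 5′ ends of 10 pairs, read from the GRCh37 (hg19) plus strand, show what lay at the extremes of the PHF8 signal. In each line the minus-strand gene starts to the left and the plus-strand gene to the right, and the stretch is intergenic between those genes. Capitals mark matches, on either strand, to 9 motifs. These were CCAAT, the site of NF-Y, then GGGCGG, the GC box bound by SP1, then CCGGAAG, bound by ETS factors, then TGACGTCA, bound by CREB, then CGCATGCG, within the motif of NRF1, then ATGGCGGC, within that of YY1, then TCGCGAGA and ACTACAATT, found at many housekeeping promoters, and TATAAA, the TATA box. A match is a description of letters, not evidence of a bound site. The first 4 belong to pairs among the 5 with the highest fold enrichment.
LIPT2/POLD3 (chr11:74204770-74204895): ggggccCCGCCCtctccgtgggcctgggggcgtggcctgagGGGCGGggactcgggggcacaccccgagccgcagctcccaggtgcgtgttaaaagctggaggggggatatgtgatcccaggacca
HDAC3/RELL2 (chr5:141016417-141016516): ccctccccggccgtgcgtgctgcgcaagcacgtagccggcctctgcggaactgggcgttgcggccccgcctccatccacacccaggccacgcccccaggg
ACACA/TADA2A (chr17:35766928-35766976): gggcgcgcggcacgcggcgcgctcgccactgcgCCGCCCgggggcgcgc
POLDIP2/TMEM199 (chr17:26684551-26684664): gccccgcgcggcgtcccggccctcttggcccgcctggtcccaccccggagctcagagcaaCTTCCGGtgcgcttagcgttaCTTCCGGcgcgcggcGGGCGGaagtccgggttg
The next line is a head-to-head promoter of long standing in the literature, bound in all replicates, with unlike signal in its genes.
POLR3K/SNRNP25 (chr16:103609-103827): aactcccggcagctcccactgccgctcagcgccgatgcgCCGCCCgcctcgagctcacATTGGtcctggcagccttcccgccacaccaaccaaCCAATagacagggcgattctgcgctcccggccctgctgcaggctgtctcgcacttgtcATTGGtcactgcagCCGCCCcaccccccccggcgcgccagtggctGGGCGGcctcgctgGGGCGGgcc
The following 5 had the lowest signal or none. They are the type IV collagen pair and a pair of histone promoters that differ in having a weak peak or no peak, and then 2 pairs with nearly no CG dinucleotides.
COL4A4/COL4A3 (chr2:228029170-228029339): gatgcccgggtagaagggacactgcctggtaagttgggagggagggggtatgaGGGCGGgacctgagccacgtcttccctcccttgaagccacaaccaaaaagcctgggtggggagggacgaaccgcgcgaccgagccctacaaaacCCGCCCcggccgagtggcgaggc
H2BC13/H2AC13 (chr6:27775708-27775950): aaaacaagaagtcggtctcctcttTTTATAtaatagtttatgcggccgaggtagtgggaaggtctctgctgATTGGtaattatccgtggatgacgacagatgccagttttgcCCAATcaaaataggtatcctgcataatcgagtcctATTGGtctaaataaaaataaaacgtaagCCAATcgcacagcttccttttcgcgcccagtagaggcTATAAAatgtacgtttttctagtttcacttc
H2AC14/H2BC14 (chr6:27782556-27782799): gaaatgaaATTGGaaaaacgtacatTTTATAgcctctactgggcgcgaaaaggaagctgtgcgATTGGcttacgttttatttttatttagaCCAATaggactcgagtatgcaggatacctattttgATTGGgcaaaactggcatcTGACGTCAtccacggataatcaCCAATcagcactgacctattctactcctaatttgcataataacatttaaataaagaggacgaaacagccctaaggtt
WNT3/WNT9B (chr17:44910521-44910566): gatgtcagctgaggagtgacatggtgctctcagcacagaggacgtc
ZDHHC19/SLC51A (chr3:195938309-195938357): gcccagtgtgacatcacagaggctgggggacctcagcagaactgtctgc
The first 4 stretches were 72.2%, 76%, 91.8% and 74.6% G and C, in the order printed. They held 8, 11, 13 and 17 CG dinucleotides. The strongest of the 5 pairs with the highest fold enrichment, NUDCD1/ENY2, is not printed. Between and around its 5′ ends it was 60.2% G and C, under the median of 63.8% for bound pairs. On that measure the first 4 pairs printed were 61.5%, 67.8%, 77.5% and 71.1%. WNT3/WNT9B held 1 CG and ZDHHC19/SLC51A held 0. These 2 do not stand for all pairs without a peak. Among the others, PTPN3/PALM2AKAP2 was 79.5% G and C between and around its 5′ ends. High GC alone did not mark a bound pair, since the COL4A4/COL4A3 stretch was 65.9% G and C with 12 CG dinucleotides and had no peak in any replicate. The 2 histone stretches were 40.7% and 38.9% G and C and carried 4 and 5 CCAAT matches.

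PHF8 lay over nearly all divergent promoters. A peak of every replicate overlapped 789 of the 859 regions (91.9%, 95% Wilson interval 89.8 to 93.5). By replicate, 798 regions were bound in A, against 794 in B1 and 793 in B2. A further 5 had a peak in 2 replicates, 8 in 1 replicate and 57 in none. Across all autosomal protein-coding genes, 54.8% of windows of 1 kb on either side of the 5′ end had a peak in all 3 replicates. On the same windows, 1513 of the 1656 pair members were bound (91.4%, 89.9 to 92.6) against 9024 of 17573 genes outside pairs (51.4%, 50.6 to 52.1). The intervals cover counting error only, and the members of a pair are not independent, because their windows overlap. At distances of at most 995 bp, the window of a member also holds the start of its partner. A member could thus count as bound through a peak inside its partner, here and in all later shares of members. The part of this in the difference was not tested.

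In A, 92.5% of members and 53.6% of other genes had a peak. In B1 the shares were 92% and 52.4%, and in B2 they were 91.8% and 52%. The difference was 38.9, 39.6 and 39.8 percentage points, a mean of 39.4 ± 0.502 (SD, n = 3), and was above 0 in 3 of 3 replicates. Flipping the signs of the 3 differences in every way, a two-sided exact permutation test, gave p = 0.25, which is the smallest value that 3 replicates allow. Of the 859 pairs, 785 had a peak of all replicates in both gene windows, 4 in the window of 1 gene and 70 in neither, counts that the overlap of the windows largely fixes.

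Part of the difference went with sequence. A promoter was called CpG-island-like where the 500 bp around the 5′ end had at least 50% G and C and a CpG ratio, observed over expected, of at least 0.6. This held for 1485 of 1656 members (89.7%) and for 7083 of 14068 genes with no 5′ end of any gene on the opposite strand within 1 kb (50.3%). Among CpG-island-like promoters, 94.7% of members (93.4 to 95.7) and 73.4% of genes with no opposite 5′ end (72.4 to 74.5) were bound. Among the other promoters the shares were 62.6% (55.1 to 69.5) and 14.4% (13.6 to 15.2). With only CpG-island-like promoters in both sets, the difference between members and all other genes was 16.8 points. Genes that faced a lncRNA gene in the same arrangement lay between, with 86.9% bound (84.9 to 88.6) among CpG-island-like promoters. Genes with any other 5′ end on the opposite strand within 1 kb, of any gene type and with overlapping genes included, had 86.3% (84.5 to 87.9). Outside CpG-island-like sequence these 2 classes had 34% (26.9 to 41.9) and 58.8% (54.4 to 63), the latter within the interval of the members. The files hold no transcription data, so how far gene activity moves with these shares was not tested.

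**Figure D1:**
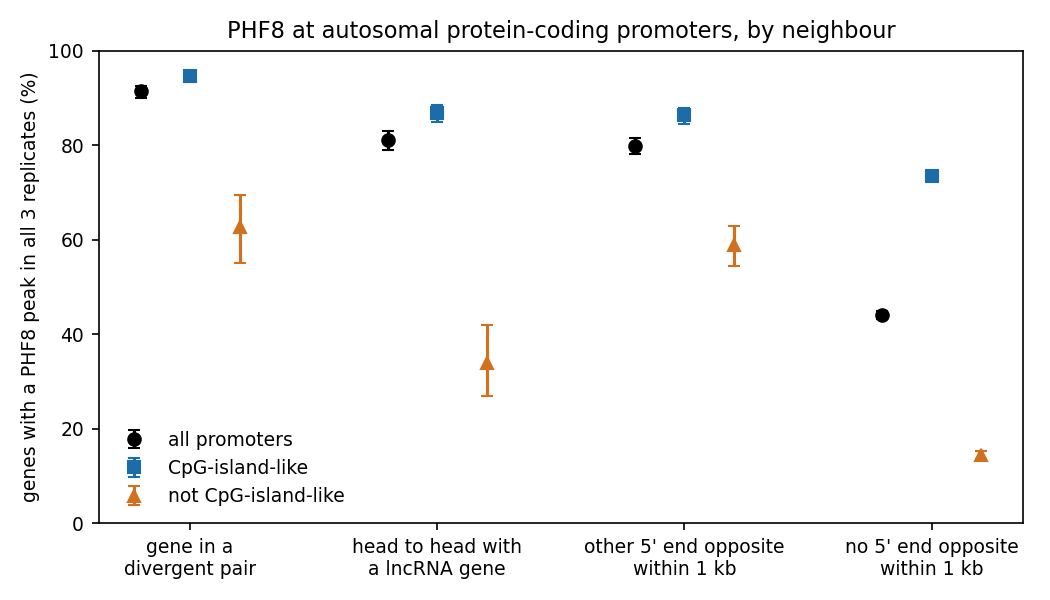
Share of autosomal protein-coding genes with a PHF8 peak in all 3 replicates within 1 kb of the 5′ end (y axis, percent) for 4 arrangements of the neighbouring 5′ end (x axis). Symbols give all promoters, CpG-island-like promoters and the rest, and bars are 95% Wilson intervals; members of divergent pairs are highest in each of the 3 sets (91.4%, 94.7% and 62.6%), although in the third the interval overlaps that of genes with another 5′ end opposite (54.4% to 63%).

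The same order held in every bin of the CpG ratio. At a ratio under 0.4, 24.1% of 54 members (14.6 to 36.9) and 7.17% of 5287 genes with no opposite 5′ end (6.5 to 7.9) were bound. From 0.4 to 0.6 the shares were 77.2% of 79 members (66.8 to 85.1) and 33.4% of 1478 genes (31.1 to 35.9). From 0.6 to 0.8 they were 93.2% of 518 and 62.8% of 2741, and from 0.8 to 1 they were 94.8% of 871 and 77.9% of 3871. At a ratio of 1 or more, 97% of 134 members (92.6 to 98.8) and 86.3% of 691 genes (83.5 to 88.6) were bound. The intervals did not overlap in any of the 5 bins.

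Bound divergent promoters had a higher median fold enrichment than other bound promoters in 3 of 3 replicates. For A, B1 and B2, the highest fold enrichment in a bound region had a median of 38.3, 22.4 and 21.4, against 32.1, 18.9 and 18.1 at bound genes outside pairs. The difference on the log2 scale was 0.26, 0.25 and 0.24, a mean of 0.25 ± 0.01 (SD, n = 3; exact sign-flip permutation p = 0.25, the smallest possible). The pair region is longer than the window of another gene and holds 2 starts. With the own window of each member in its place, which still holds both starts, the mean was 0.25. Bound genes facing a lncRNA gene had medians of 35.1, 20.8 and 19.9, and those with no opposite 5′ end 30.9, 18.1 and 17.2. The distributions overlapped widely, as the median pair exceeded 65.5%, 63.9% and 64.2% of the other bound promoters in A, B1 and B2. Pairs with a peak in A had values from 4.68 to 72.9, those in B1 from 3.07 to 48.6 and those in B2 from 4.15 to 46.4. In the order A, B1 and B2, the strongest summit of a pair rested on a median of 116, 74 and 75 ChIP fragments, and on at least 14, 13 and 12. Over the 789 bound pairs, the Spearman rank correlation of fold enrichment was 0.908 between B1 and B2, 0.742 between A and B1 and 0.739 between A and B2, a description across pairs that share their libraries. On ChIP fragments at the strongest summit, the same correlations were closer to each other, at 0.927, 0.892 and 0.887. By their labels B1 and B2 carry the letter of 1 of the inputs and A that of the other, so the 3 replicates may not be equally independent. The median width of the strongest peak was 888, 750 and 714 bp at pairs, against 808, 726 and 678 bp at other genes. The widths thus differed by 79.5, 24 and 36 bp, a mean of 46.5 ± 29.2 bp (SD, n = 3; exact p = 0.25). The mean was 30 bp without A, 19.5 bp (exact p = 0.5) without readthrough genes and genes without a symbol, and 12.2 bp (exact p = 1) with fold enrichment above 10, and in the last 2 settings the 3 replicates no longer had the same sign.

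Few summits lay in the shared stretch between the annotated 5′ ends. Summits, the single highest position that each listed peak carries, lay inside the genes on both sides. In A, 591 summits fell in the minus-strand gene, 569 in the plus-strand gene and 36 between the 5′ ends. In B1 the numbers were 614, 600 and 38, and in B2 they were 612, 614 and 32. The share between the 5′ ends was 3.01%, 3.04% and 2.54%, a mean of 2.86 ± 0.277% (SD, n = 3), while that stretch made up 9.02% of the bases of the regions. The share depended on where the 5′ ends were set. It was 1.17% with pairs at most 500 bp apart. With the 5′ ends of canonical transcripts, which lie over 1 kb apart in 324 pairs, it was 17.1%. That value counted only peaks over the regions set by the gene records, so summits near distant canonical starts were mostly missed. In the 534 pairs whose canonical 5′ ends lie 1 to 1000 bp apart, with regions set on those ends, the share was 4.32%, with 12.7% of the bases. Per kb of sequence in bound pairs, summits between the 5′ ends numbered 0.229, 0.246 and 0.207. In the first 200 bp of the genes they numbered 2.47, 2.54 and 2.6 per kb, and from there to 1000 bp 0.291, 0.321 and 0.316 per kb. All 3 replicates gave this order, with the first 200 bp far above both neighbours.

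**Figure D2:**
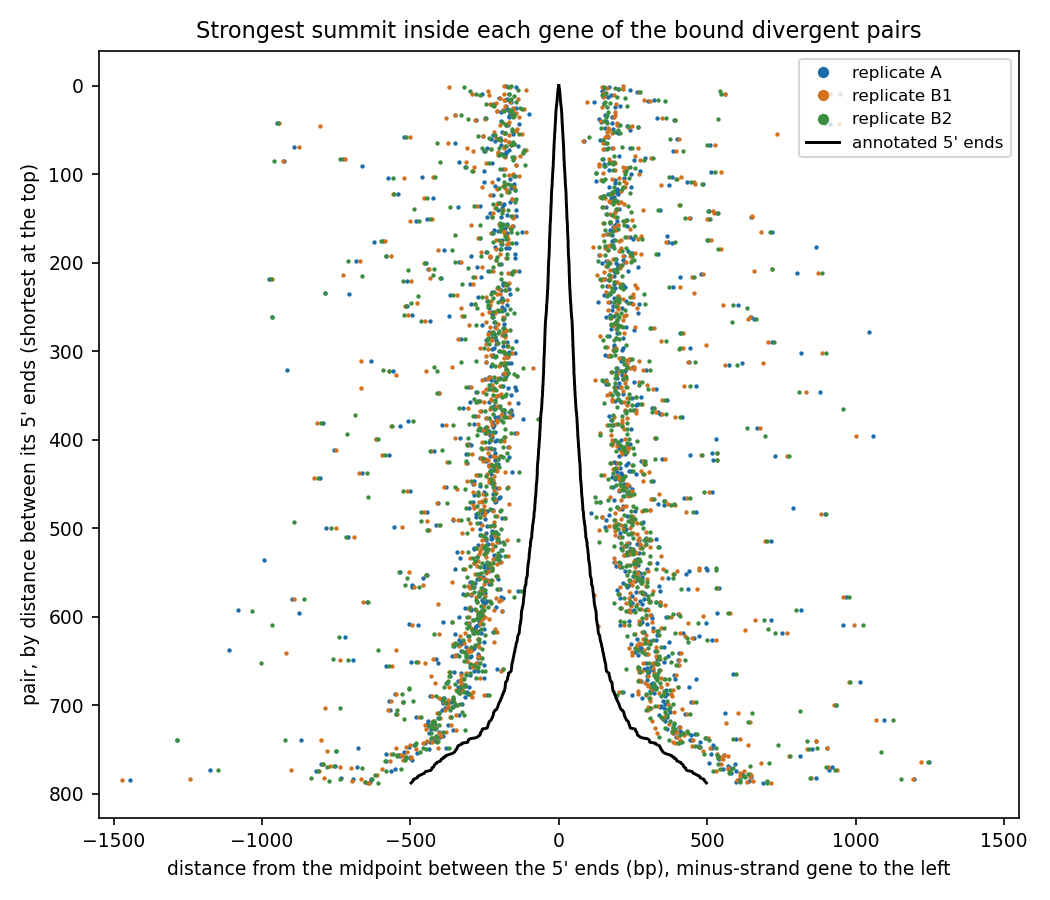
Position of the strongest PHF8 summit inside each gene (x axis, bp from the midpoint between the 5′ ends) for the 789 bound pairs, sorted by distance between the 5′ ends (y axis). Coloured dots are the 3 replicates and black lines the annotated 5′ ends; the dots form a band just inside each gene that moves outward with the 5′ ends, and the space between the lines is not plotted with summits because those shown are the ones inside genes.

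Inside a gene, summits lay at a median of 165, 170 and 166 bp from the 5′ end, with quartiles of 137 and 235 bp in A. The bin from 150 to 200 bp alone held 32.8%, 31.6% and 32.2% of the summits inside genes. Bound genes with no opposite 5′ end within 1 kb had nearly the same position, with a median of 168, 172 and 171 bp inside the gene. Of the summits around such a gene, 29.7%, 29.7% and 29.1% lay upstream of its 5′ end. No like share was taken for pair members, whose upstream side holds the partner gene by the rule. In the 200 bp upstream of these genes, summits numbered 0.305, 0.346 and 0.311 per kb, so that this stretch was also sparse without an annotated partner.

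**Figure D3:**
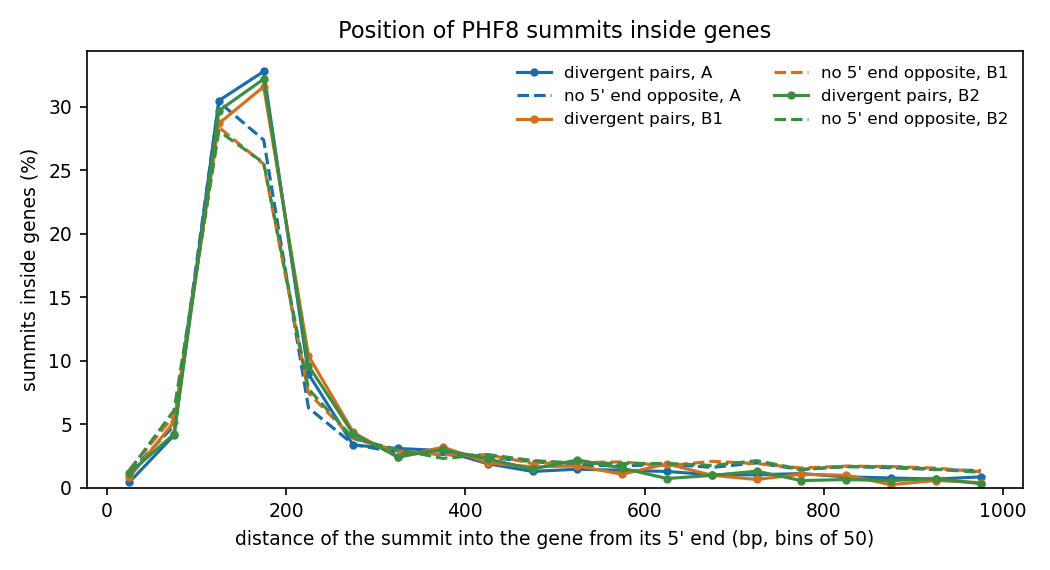
Share of the PHF8 summits inside genes (y axis, percent) by distance into the gene from its 5′ end (x axis, bins of 50 bp), with solid lines for divergent pairs and dashed lines for genes with no opposite 5′ end, 1 line per replicate. All 6 lines peak between 100 and 200 bp, and for pairs the bin from 150 to 200 bp holds 32.8%, 31.6% and 32.2% in A, B1 and B2.

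The number of genes in a pair that held a summit differed between classes of distance. Over all bound pairs, 40%, 47.2% and 49.2% had a summit in both genes, a mean of 45.5 ± 4.85% (SD, n = 3). A single peak reached over both 5′ ends in 56.3%, 46.7% and 43.9%, a mean of 49 ± 6.49%. A, whose peaks were wider, had the lowest share of the first and the highest of the second. The part of peak width in this was not tested. Around single bound genes, the like measure was summits on both sides of the 5′ end within 1 kb. It held for 45.1 ± 4.75% of pair members and 40.6 ± 3.11% of genes facing a lncRNA gene (SD, n = 3). Genes with any other 5′ end opposite had 25.9 ± 2.15% and those with none 27.1 ± 1.22%.

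At 1 to 100 bp, 314 of 337 pairs were bound (93.2%) and 29.7 ± 2.94% of them had summits in both genes, while 76 ± 4.4% had 1 peak over both 5′ ends. Above 100 and up to 200 bp, 221 of 246 were bound (89.8%) and the share with summits in both genes was 37.2% in A against 53.6% and 57.7% in B1 and B2. Above 200 and up to 300 bp, 107 of 112 were bound (95.5%) and the share was 71.7 ± 1.99%, with 69.4%, 72.9% and 72.9% in A, B1 and B2. That class lay above its neighbours in every replicate. Above 300 and up to 500 bp, 85 of 90 were bound (94.4%) and 57.2 ± 2.68% had summits in both genes. Above 500 bp, 62 of 74 were bound (83.8%, 73.8 to 90.5) and the share was 49.5 ± 2.21%. The last class was also the one with the fewest CpG-island-like pairs, 75.7% against 92.3% to 95.5% in the others. Median fold enrichment was lowest in the class above 200 and up to 300 bp in every replicate, with 32.3, 19.8 and 19.6, beside 32.1, 18.9 and 18.1 at bound genes outside pairs. The other classes reached at most 39.4 in A, 22.8 in B1 and 21.9 in B2.

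Where both genes held a summit, the distance between the summits was a median of 601 ± 22.1 bp in the closest pairs, 522 ± 9.36 bp in the class up to 200 bp and 588 ± 9.25 bp in that up to 300 bp. It was 700 ± 12.4 bp up to 500 bp and 1230 ± 33.5 bp in the widest class. Summits between the 5′ ends were 0% of summits in the closest pairs in every replicate and 0.104 ± 0.18% in the class up to 200 bp, where that stretch held 2.68% and 6.63% of the bases. They made up 2.11 ± 0.746%, 5.77 ± 0.341% and 18.7 ± 2.23% in the wider classes, against 10.8%, 15.9% and 27.3% of the bases. In every class the share of summits lay below the share of bases.

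**Figure D4:**
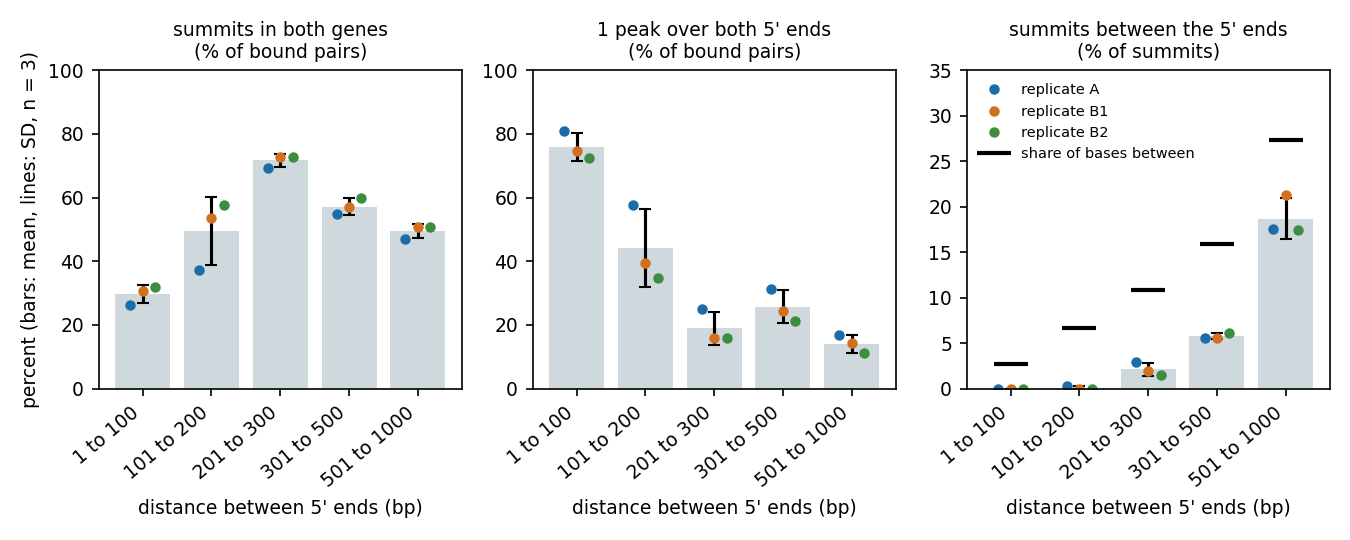
Shares in percent (y axis) by distance between the 5′ ends (x axis, bp): bound pairs with summits in both genes, bound pairs with 1 peak over both 5′ ends, and summits between the 5′ ends. Bars are means with SD over 3 replicates, dots the replicates and black dashes in the right panel the share of bases between the 5′ ends; summits in both genes are most frequent in the class above 200 and up to 300 bp (71.7%).

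In many pairs the side with the stronger signal was the same in all replicates. The strongest summit lay in the same place in all 3 replicates in 621 of the 789 bound pairs (78.7%, 75.7 to 81.4). It lay in the minus-strand gene in 307, in the plus-strand gene in 295 and between the 5′ ends in 10, and for 9 pairs the summit of the strongest overlapping peak lay outside the region. Neither strand was favoured by count. In 242 pairs both genes held a summit in all 3 replicates, and in 182 of these (75.2%) the same gene was the stronger in every replicate. The log2 ratio between the sides had a median size of 0.68, with a median SD between replicates of 0.30, and 67 pairs differed by over 2-fold. In 286 further pairs only 1 gene held a summit in all 3 replicates. Since a broad peak is listed with 1 summit, the absence of a second summit does not show that the other gene lacked signal.

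Among the 242 pairs with summits in both genes in all replicates, the largest mean ratio was that of MAP3K11/PCNX3, where MAP3K11 encodes a kinase of the JNK pathway. Its fold enrichment was 4.37, 4.06 and 4.55 in MAP3K11 and 42.1, 22.4 and 22.8 in PCNX3, in A, B1 and B2. The log2 ratio was 2.69 ± 0.507 (SD, n = 3) towards PCNX3, and the sides did not overlap. The strongest peak that overlapped this region, with 45.2, 24.5 and 23.5, had its summit beyond the scored 1 kb in every replicate and is in neither side. HDAC3/RELL2, not among the 242 because RELL2 held no summit in B2, had larger log2 ratios of plus over minus gene in A and B1, -3.68 and -3.01. COMMD6/UCHL3, with a ubiquitin hydrolase on the plus strand, had 8.57, 6.19 and 3.51 in COMMD6 and 38.2, 26.9 and 29.9 in UCHL3. The UCHL3 summit lay 411 to 434 bp inside the gene and the COMMD6 summit 161 to 230 bp, so these values do not compare signal at equal depth. IDH1, the cytosolic isocitrate dehydrogenase, had 7.41, 4.05 and 5.39, against 37.4, 20.2 and 23.4 in PIKFYVE, a lipid kinase of endosomes, a log2 ratio of 2.26 ± 0.12. The opposite direction was seen at RANBP10/TSNAXIP1, with 59.2, 33.8 and 31.9 in RANBP10 and 10.9, 5.9 and 7.17 in TSNAXIP1. NUDCD2 had 54.5, 35.7 and 35.4, against 13.3, 7.11 and 6 in HMMR, the hyaluronan-mediated motility receptor. The HMMR summit lay 509 to 550 bp inside the gene, and 1 peak reached over both 5′ ends in every replicate. Each of these 5 pairs kept its stronger side in 3 of 3 replicates.

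Among the most equal pairs, EIF2B4, a subunit of a translation initiation factor, had 52.2, 20.8 and 22.9, and SNX17, a sorting nexin, had 40.5, 24.9 and 24.2. PDCD10 had 42.8, 21.3 and 21.8, against 33, 25.6 and 23.8 in SERPINI1, the neuronal serpin. In both pairs the minus-strand gene was the higher in A and the lower in B1 and B2, so their order was not settled by the replicates. ARID4B and C11orf71, with partners that have no symbol, were also among the 5 most equal pairs and changed order between replicates.

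The strength of a pair is given as the mean over replicates of its percentile among bound pairs. The highest was NUDCD1/ENY2 on chromosome 8, where ENY2 is a subunit of the SAGA coactivator, with 71.3, 44.7 and 45.7 in A, B1 and B2. LIPT2/POLD3, with a lipoyl transferase and a subunit of DNA polymerase delta, followed with 70.4, 43.2 and 45.5. HDAC3/RELL2, with the deacetylase HDAC3, had 67.1, 43.7 and 46. ACACA/TADA2A, with acetyl-CoA carboxylase and an adaptor of histone acetyltransferase complexes, had 68.5, 43 and 45, and POLDIP2/TMEM199 had 66.7, 45.7 and 43.7. All 5 lay at or above the 99th percentile on average. In the 4 whose sequences are printed above, the strongest summit lay 119 to 185 bp inside 1 gene, in LIPT2, HDAC3, TADA2A and POLDIP2.

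The lowest bound pair was H3C7/H2BC9, replication-dependent histone genes whose 5′ ends lie 979 bp apart (chr6:26249863-26252842), with 5.61, 4.45 and 4.18. Its strongest summit lay 144 bp inside H3C7 in A and 139 bp in B2, but 752 bp in B1. With a flank of 500 bp it had a peak in only 2 replicates. VAT1/RND2, with a small GTPase on the plus strand, had 6.38, 5.37 and 5.17, and H2BC13/H2AC13 had 4.83, 5.55 and 5.66. SEZ6L2/ASPHD1 had 6.23, 4.77 and 6.24, and CHCHD10/MMP11, with the metalloprotease stromelysin 3, had 12, 4.5 and 5.18. At these pairs the summits rested on 13 to 35 fragments, and each was lost from the bound pairs when a fold enrichment above 10 was asked for.

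Of 22 head-to-head pairs of long standing in the literature, the rule found 14, and 13 of these were bound, with mean percentiles from 8.7 to 92.4 and a median of 65.9. Several serve DNA repair and replication. PRKDC/MCM4, a repair kinase and a replicative helicase subunit with 5′ ends 7 bp apart, had 49.9, 32.7 and 28.1 in A, B1 and B2. The summit in PRKDC was about 2-fold above that in MCM4, a log2 ratio of -1.03 ± 0.068 of plus over minus gene. The MCM4 summit lay 901 to 944 bp inside the gene, and 1 peak reached over both 5′ ends in every replicate. The ratio thus does not compare signal at the 2 starts. NPAT/ATM, an activator of histone gene transcription and a DNA damage kinase, had 31.2, 20.1 and 15.8, and MRE11/ANKRD49, with a nuclease of double-strand break repair, was weak with 17.9, 13.6 and 10.5. TMEM258/FEN1, with the flap endonuclease FEN1, was the pair on which replicates differed most among the 13. It had 1 peak of 1320 bp and 50.9 in A, and separate peaks of at most 19.4 in B1 and 16.8 in B2.

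PPAT/PAICS, enzymes of purine synthesis, was weak with 23.3, 14.7 and 13.5, and TK1/AFMID, with thymidine kinase, had 30, 21.6 and 17.9. SIRT3/PSMD13, a mitochondrial deacylase and a proteasome subunit, was the strongest of the 13 with 53.1, 35.3 and 36.9, and its larger summit lay 702 to 718 bp inside SIRT3. POLR3K/SNRNP25, a subunit of RNA polymerase III and a protein of the minor spliceosome, had 63.1, 31 and 33.5, with the plus-strand gene SNRNP25 above POLR3K in every replicate (42.1, 13.4 and 9.74). UROS/BCCIP, with a heme synthesis enzyme, had 47.1, 29.1 and 28.2, and PDCD10/SERPINI1, given above, lay at a mean percentile of 63.1. The mitochondrial translation pairs SARS2/MRPS12 and MRPL21/IGHMBP2 had 41.9, 28 and 24.4, and 56.5, 30.5 and 31.4. COL4A4/COL4A3, the basement membrane collagens whose promoter is printed above, had no peak in any replicate.

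Gene groups were read by symbol, and their counts stand beside 91.4% of all pair members and 51.4% of genes outside pairs, so that a group with nearly all its members in pairs bound does not differ from pairs in general by that count. The core histones stood lowest in strength. Of 23 histone genes in pairs, 18 were bound, and of 51 outside pairs, 27 were. The symbols read also took in linker H1 histones, which are not core histones and lie among the 51. Among 12 histone pairs, 10 were bound at a median percentile of 5.94, and all but 1 lay at 14.9 or lower. H2AC25/H2BC26 was the exception, with 30.8, 19.1 and 20.7 (mean percentile 36.7 ± 8.89). H2BC12/H2AC12 had 23.5, 16.3 and 12, and H2BC21/H2AC20 had 15.2, 9.91 and 12.5. H2AC1/H2BC1 and H2AC14/H2BC14 had no peak. Pairs H3C12/H2BC17 and H2AC17/H2BC17 shared their peaks, with 16, 13.8 and 11.5. The histone pairs were 41.6% to 56.4% G and C, under the median of 63.8% for bound pairs. Histone genes have close copies between which reads could have been split, and the treatment of such reads is not given in the sources used here.

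The medians of the 7 other groups with at least 5 bound pairs ran from 51.1 to 74.7. All 11 cytosolic ribosomal protein genes in pairs were bound, against 63 of 69 outside pairs, at a median percentile of 74.7, from RPS25/TRAPPC4 with 23.8, 9.57 and 10.6 to RPL35/ARPC5L with 59.3, 43.2 and 35.8. All 17 mitochondrial ribosomal protein genes in pairs were bound (58 of 61 outside), at 61.6. Of 25 respiratory chain genes and their assembly factors, 24 were bound (69 of 83 outside), at a median of 58, and ATP5MJ/TDRD9 had no peak. The 6 genes with a proteasome symbol were all bound (38 of 43 outside) at 65.7, although PSME3IP1 among them encodes an interactor and not a subunit. All 9 RNA polymerase genes and all 30 ZNF genes in pairs were bound, against 22 of 25 and 367 of 473 outside pairs. Of 29 DNA repair and replication genes, 28 were bound (62 of 73 outside), at 51.5, and RAD51D/FNDC8 was the pair without a peak. Collagens were bound at 0 of 2 genes in pairs and 11 of 40 outside. Of 152 genes with a keratin symbol, the 1 in a pair, KRTCAP2, was bound and is no keratin, and 3 of the 151 others were bound. The clustered protocadherins and the 10 genes of the TGFβ list had no member in a pair, and 5 of 53 and 7 of 10 were bound at their own promoters.

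**Figure D5:**
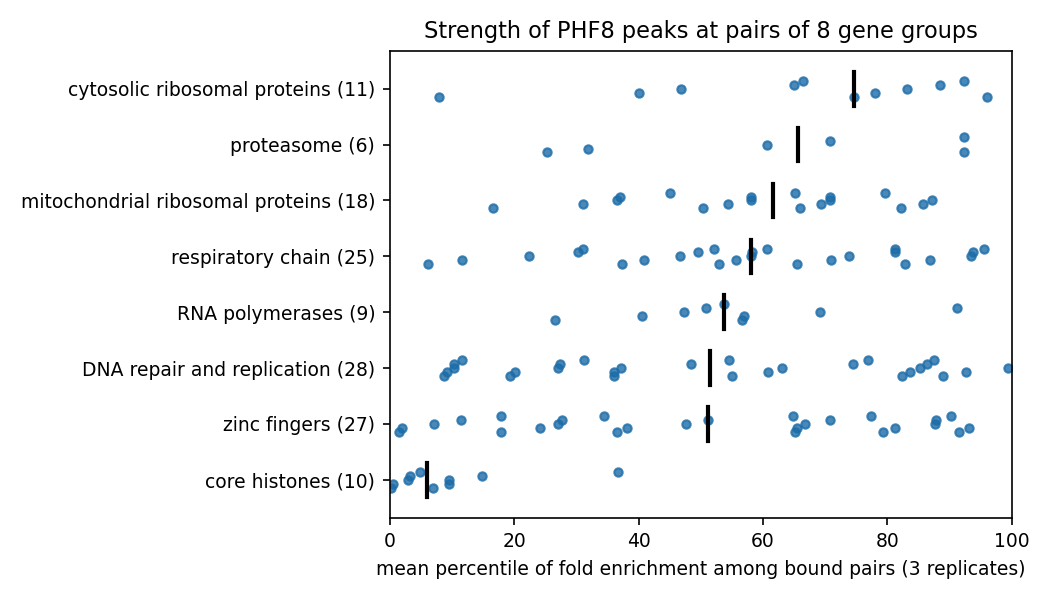
Mean percentile of fold enrichment among bound pairs over 3 replicates (x axis) for the bound pairs of 8 gene groups (y axis, number of bound pairs in brackets). Each dot is a pair and each black bar the group median; the core histones sit at the left with a median of 5.94, and the cytosolic ribosomal proteins have a median of 74.7.

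The 57 pairs without any peak differed from the bound pairs in sequence. CpG-island-like sequence between and around the 5′ ends was found in 30 of the 57 (52.6%) and in 756 of the 789 bound pairs (95.8%), with a median CpG ratio of 0.627 against 0.83. Read the other way, 95.2% of the 794 CpG-island-like pairs and 50.8% of the 65 others were bound in all replicates. Next come the 10 without a peak whose 5′ ends lay closest. PLCZ1/CAPZA3, with the sperm phospholipase C zeta, had a CpG ratio of 0.163, DCST2/DCST1 had 0.245, and the developmental ligands WNT3/WNT9B had 0.219. ZDHHC19/SLC51A had 0.3. Others had CpG-island-like sequence and no peak, such as SOX30/C5orf52 with 0.93, KCTD19/LRRC36 with 0.802, LYPD4/DMRTC2 with 0.746 and PTPN3/PALM2AKAP2 with 0.95. PRSS54/GINS3 and CFAP90/MTRR completed the 10.

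An absent peak at the annotated end did not always mean an unbound gene. The 5′ end of a gene record is that of its outermost transcript, and for 46 of the 113 genes in pairs without a peak the canonical transcript started over 1 kb away. Of all 113 genes, 17 were bound in all 3 replicates at the canonical 5′ end, among them GINS3, of the replication helicase, MTRR, of methionine synthesis, PALM2AKAP2, ATP5MJ, RAD51D and UHRF1. Among the genes of bound pairs, 253 of 1517 had a canonical start over 1 kb away. The 13 pairs bound in 1 or 2 replicates had weak peaks, with fold enrichment from 3.07 to 12.8, and a peak was present in 9 in A, 5 in B1 and 4 in B2.

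Divergent promoters held several motifs at other frequencies than the windows of the same lengths upstream of other genes. The search covered both strands from 50 bp inside one gene to 50 bp inside the other. A pair window thus held 2 gene starts, while a window upstream of another gene was placed by 1. The part of this in the shares was not tested. CCGGAAG was found in 245 pairs (28.5%), against 9.78% of other windows and 15.1% of those at CpG-island-like promoters. CGCATGCG was found in 7.45% against 3.24% of the CpG-island-like windows, ATGGCGGC in 6.75% against 4.5%, TCGCGAGA in 4.31% against 1.84%, and ACTACAATT in 0.931% against 0.453%. GGGCGG, in 71.2%, had nearly the share of CpG-island-like windows (70.8%), and CCAAT was found in 41.1% against 32.5%. TGACGTCA was found in 4.77% against 3.05%. TATAAA was rarer in pairs, with 5.01% against 12% of all other windows and 6.44% of CpG-island-like ones. Some matches fall in 1 stretch with others, as in the histone promoters above.

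Pairs with a CCGGAAG match were bound in 98.4%, and those without in 89.3%. All 64 pairs with CGCATGCG, all 58 with ATGGCGGC and all 8 with ACTACAATT were bound, and 97.3% of those with TCGCGAGA, against shares of 91.2% to 91.8% without the match. For CCAAT the shares were 92.1% and 91.7%, and for GGGCGG 93.3% and 88.3%. TATAAA went the other way, with 86% of the 43 pairs that hold it and 92.2% of the others. These directions were not particular to pairs, since they also held, with wider gaps, for the windows upstream of other genes. There the bound shares with and without the match were 85.9% and 47.6% for CCGGAAG, 89.6% and 50.6% for CGCATGCG, and 87.7% and 50.3% for ATGGCGGC. They were 69.6% and 34.8% for GGGCGG, and 29.1% and 54.4% for TATAAA. The median percentile of fold enrichment with and without the match was 36.2 and 52.3 for TATAAA and 38.4 and 51.6 for TGACGTCA. It was higher with the match for ATGGCGGC (62.7 and 50.7), TCGCGAGA (62.6 and 50.7) and GGGCGG (53.1 and 45). The medians lay closer for CCGGAAG (52 and 50.7), for CGCATGCG (49.9 and 51.1), for ACTACAATT (55.5 and 51) and for CCAAT (47.4 and 52.1). These shares describe co-occurrence of letters and peaks over pairs that differ in CpG content.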

How the data were processed

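Following the labels and the methods of the study, the authors crosslinked and sonicated SKMEL-147 chromatin, aligned ChIP and input reads to hg19 with Bowtie2 and called narrow peaks with MACS for each of the 3 replicates. The submitters' processing notes also name bcl2fastq and Picard. Versions and the treatment of duplicate and multiply mapping reads are not given in the sources used here. The deposited lists hold fold enrichment as a linear ratio, −log10 p-values and −log10 q-values, and a score, which was not used. All listed peaks had a q-value below 0.05 and a fold enrichment above 1.5, and 0 ran past a chromosome end.

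Pairs came from GENCODE release 44 lifted to GRCh37, and a region was bound where a peak overlapped it by at least 1 bp. The members, gene lists and motifs were chosen with earlier results of these data known. The pairs named were the textbook pairs the rule found, the 5 strongest and 5 weakest bound pairs, the 10 pairs with no peak and the closest 5′ ends, and the 5 most and 5 least equal pairs. Of these, 2 pairs are not reported here. ChIP fragments at a summit were recovered from fold enrichment and p-value under MACS's Poisson law, and came out whole for 100% of peaks within 0.001. Amplified copies cannot be told apart from separate molecules, and the intervals therefore hold for counting error alone. Differences over replicates were tested by an exact permutation of their signs (two-sided), and shares carry 95% Wilson intervals. The scripts, in Python 3.11.15 with pandas 2.3.3, SciPy 1.17.1 and pysam 0.24.0, were tested on simulated data. Alternatives covered cutoffs, distance, flank, replicates, comparison set and the choice of 5′ end.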

Additional observations from a re-analysis of the deposited data

How the results depend on the processing

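The number of bound pairs (704 to 794 over 11 alternatives), the difference in the share of bound genes (16.8 to 46.5 points over 12) and the log2 difference in fold enrichment (0.15 to 0.31 over 12) kept their direction throughout. The mean difference in peak width stayed above 0 (12.2 to 77.3 bp over 11), but not every replicate did with fold enrichment above 10 (12.2 bp) or without readthrough genes and genes without a symbol (19.5 bp). No alternative could pass p = 0.05, as 3 replicates allow no exact p under 0.25. Leaving out 1 replicate gave 2.78% to 3.02% of summits between the 5′ ends and 43.6% to 48.2% of bound pairs with summits in both genes.

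The share of summits between the 5′ ends was 2.28% with fold enrichment above 10, 1.17% with pairs at most 500 bp apart, 2.53% without readthrough genes and genes without a symbol, and 3.17% with a flank of 500 bp. It was 17.1% with the 5′ ends of canonical transcripts, which lie over 1 kb apart in 324 pairs, so that this stretch then holds far more bases. Only peaks over the regions set by the gene records were counted there, so summits near distant canonical starts were mostly missed. That can raise this share and lower the share of pairs with summits in both genes. A restricted set, chosen after seeing the data, held the 534 pairs whose canonical 5′ ends lie 1 to 1000 bp apart. With regions set on those ends, the share between them was 4.32% against 12.7% of the bases. The share of bound pairs with summits in both genes was 32.8% with fold enrichment above 10, 39.4% with a flank of 500 bp and 47% in the restricted set. With canonical 5′ ends for all pairs it was 32.3%, under the same limit on the peaks counted. No paired analysis was possible between groups because only the ChIP group has peak lists.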
